A study of Homo sapiens with 18 samples.

Results

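Extracellular vesicles (EVs) are membrane-bound particles that cells release, and the 37 genes described here encode proteins that build, sort, release or mark them. The genes were chosen by name, with no threshold on a value, but with earlier results of these data known. They are 37 of the 57865 genes summed from the deposited table, and comprise 3 genes of ESCRT-0, 4 of ESCRT-I, 3 of ESCRT-II, 5 of ESCRT-III, 2 VPS4 ATPases, 4 genes of the ALIX and syndecan-syntenin pathway, 3 tetraspanins, 4 flotillins and annexins, 6 small GTPases, and 2 neutral sphingomyelinases with their activator NSMAF. RNA was taken from HEK293T, an established line of human embryonic kidney cells, and from the EVs that these cells released. The 18 libraries formed 6 groups of 3, with wild-type, ATG7-/- (clone F2) and ATG12-/- (clone D9) HEK293T each sampled as EVs and as cells. All groups, wild type included, had been kept without serum for 24 h. ATG7 and ATG12 belong to the enzyme system that attaches LC3 to lipid during autophagy, and the study asked whether that system sets which large RNAs enter EVs. Each knockout was 1 clone, so a change due to the gene and a change due to the clone cannot be told apart. The labels call the 3 libraries of a group biological replicates without saying what was grown or isolated separately. P-values thus measure the spread between libraries within groups, pooled over the groups of a fit. How the EVs were isolated is not given in the sources used here.

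Vesicles that bud into the endosome become EVs when the endosome fuses with the plasma membrane, and other EVs bud from the plasma membrane itself. ESCRT complexes gather ubiquitinated cargo and cut the membrane neck, ALIX and syntenin bring syndecan cargo to the same machinery, and neutral sphingomyelinase makes ceramide, which can bend membranes without ESCRT. RAB GTPases then move and dock the endosomes, while tetraspanins, flotillins and annexins are proteins by which EVs are commonly recognised. These roles concern proteins, and the values below are RNA.

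RNA levels are given in TPM, a share of a library scaled by transcript length, so depth and counting error are unknown. In bulk libraries, fewer vesicles or cells with an RNA and less RNA in each cannot be told apart. Genes with at least 1 TPM in a library numbered 13255 to 14716 in EV libraries and 18464 to 20509 in cell libraries. The median SD of the described genes on log2(TPM + 1) was 0.73 in wild-type EVs, 0.73 in ATG7-/- EVs and 1.05 in ATG12-/- EVs, but only 0.37, 0.44 and 0.40 in the matching cells. ATG7 RNA ranged from 11.2 to 15.6 TPM in ATG7-/- EVs and from 13.3 to 19.4 TPM in wild-type EVs. In cells it ranged from 8.06 to 12.9 TPM in ATG7-/- and from 8.14 to 13.1 TPM in wild type. ATG12 RNA ranged from 5.18 to 9.18 TPM in ATG12-/- cells and from 7.61 to 13.5 TPM in wild-type cells. ATG12 in EVs was at most 0.858 TPM in ATG12-/- and ranged from 0.844 to 22.6 TPM in wild type. These ranges overlapped, so RNA levels gave no check of the genotypes. Of 8 genes listed as marks of HEK293T, 6 averaged 1 TPM or more in cells and 7 in EVs. Among genes of other cell types, the platelet genes PF4 and PPBP, the leukocyte genes CD3E and CD79A, ALB of hepatocytes and HBB of red cells were at 0 in every library. Other genes of the same lists were not: LYZ had means of 6.11 TPM in cells and 3.91 TPM in EVs, PTPRC 1.42 and 0.693 TPM, TF 4.05 and 2.21 TPM, and HBA1 1.02 and 0.639 TPM. APOA1 was 0 in every EV library and had a mean of 0.219 TPM in cells. Fibroblast genes summed to between 8.11 and 26.2 TPM in cells and between 0.509 and 40.6 TPM in EVs, and the part of all these genes in the results was not tested.

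A limit on every level below is the strand setting, which is not given in the sources used here. The antisense feature AC006064.4 exceeded GAPDH, which it overlaps, in 18 of 18 libraries, with means of 3488 against 84.7 TPM in cells and 11737 against 568 TPM in EVs. The kit was stranded, and if it was read with the opposite setting, the value of every gene measures the other strand or stray reads. Of the 37 genes, 15 had such a feature, 18 features in all, and for 7 genes a feature exceeded the gene in the means of both EVs and cells. CHMP3 (mean 3.06 TPM in cells) lay opposite AC015971.1 (84.2 TPM), which was higher in 18 of 18 libraries. VPS37B lay opposite AC027290.1, which was higher in 17. RAB27A (0.730 TPM in EVs, 5.34 TPM in cells) lay opposite PIGB (9.76 and 20.0 TPM), which was higher in 17. SMPD2 lay opposite PPIL6, higher in 16 libraries, and CHMP6 and VPS37A lay opposite AC127496.6 and CNOT7, each higher in 14. The RAB27B feature AC098848.1 had 0.769 TPM in EVs and 0.986 TPM in cells. Overlap took few exonic bases of AC015971.1 (96 of 2860), PIGB (154 of 4542), PPIL6 (409 of 4481) and CNOT7 (243 of 10943). It took all of AC027290.1 (484) and AC127496.6 (455). A TPM covers a whole feature, so where the overlap was short it does not show which strand was read. No library had a higher feature opposite HGS, TSG101, PDCD6IP, CD63 or RAB35.

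Together the 37 genes held between 439 and 702 TPM of an EV library (median 581) and between 302 and 470 TPM of a cell library (median 382), so all but 1 EV library lay above every cell library. From 26 to 33 of them reached 1 TPM in EV libraries, and from 27 to 32 did so in cell libraries. The highest mean in EVs was that of TSG101 (74.7 TPM), followed by HGS (61.9 TPM), VPS4A (50.5 TPM), RAB7A (49.1 TPM) and CD63 (46.6 TPM). In cells the order was VPS4A (58.3 TPM), HGS (41.1 TPM), FLOT2 (34.9 TPM), TSG101 (31.5 TPM) and RAB7A (27.0 TPM). The SDs over the 9 libraries ranged from 6.50 TPM for TSG101 to 19.9 TPM for FLOT2 in cells and from 15.9 TPM for VPS4A to 41.6 TPM for HGS in EVs, so neighbours in either order did not differ beyond their spread. RAB27B, which docks secretory endosomes in other cell types, was listed at 0 in all 9 EV libraries and in 8 cell libraries, and was 0.0812 TPM in the remaining one. By the plot of levels, ESCRT-III genes, syndecans and neutral sphingomyelinases lay low in EVs, while in cells SMPD3 (8.25 TPM) lay above every ESCRT-III gene, and 1 gene each of ESCRT-0, ESCRT-I and the VPS4 pair lay high.

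**Figure D1:**
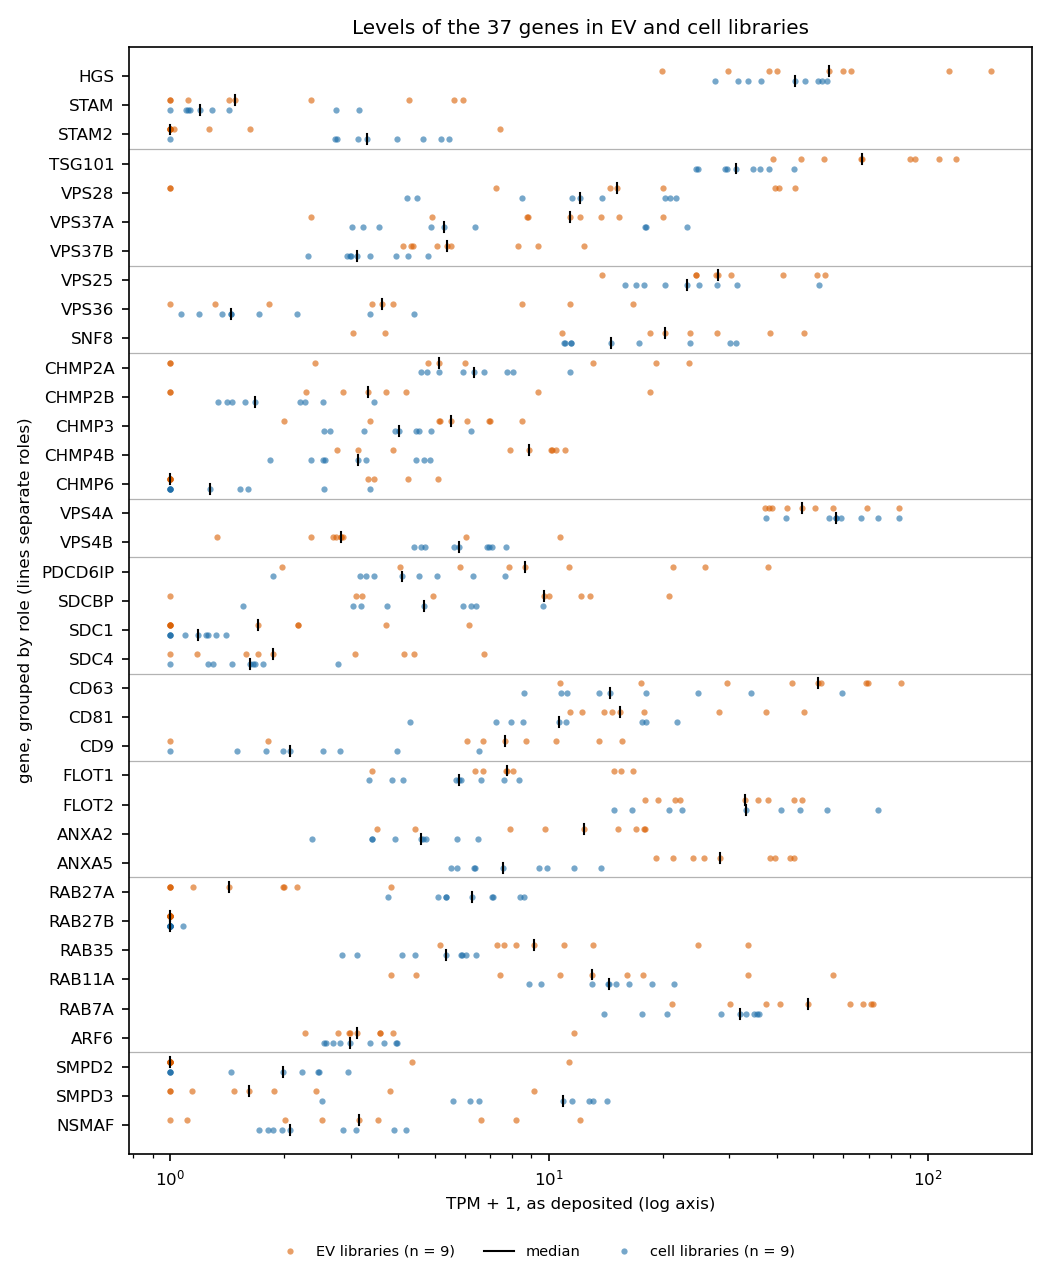
Levels of the 37 genes, with TPM + 1 on a log axis against genes grouped by role. Points are libraries (9 EV, 9 cell), and short bars are medians. TSG101 in EVs spans 38.2 to 118 TPM, while RAB27B sits at 0 in 17 of 18 libraries.

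EVs were compared with the cells that released them in each genotype. In wild type, 4 of the 36 genes tested passed the threshold (adjusted p under 0.05): ANXA5, a calcium-dependent binder of phosphatidylserine, was higher in EVs, while RAB27A, VPS4B and SMPD3 were lower. That is 1 gene higher and 3 lower, where 24.7% of all 24647 genes tested passed, 4.03% higher and 20.7% lower. In ATG7-/-, ANXA5 and ANXA2 were higher and RAB27A was lower, which made 3 genes where 11.4% of all genes passed, 2.71% higher and 8.69% lower. In ATG12-/-, VPS4A and RAB27A were lower and none was higher, which made 2 genes where 11.2% of all genes passed, 2.27% higher and 8.9% lower. At an unadjusted p under 0.05 the counts were 11, 9 and 7 of 36 genes, against 38.6%, 28.1% and 27.6% of all genes. Leaving out 1 library at a time, 7 genes passed in wild type without EV replicate 3. In ATG7-/- 1 passed without EV replicate 2, cell replicate 1 or cell replicate 3. In ATG12-/- none passed without EV replicate 3 or cell replicate 1, and 1 passed without EV replicate 2, cell replicate 2 or cell replicate 3. The genes that passed were not always those named above. Without ATG12-/- EV replicate 2, neither VPS4A (adjusted p = 0.0616) nor RAB27A (adjusted p = 0.051) passed, by limma. Of all genes, 5076 passed in that wild-type fit, from 1546 to 2103 in those ATG7-/- fits and from 1292 to 2089 in those ATG12-/- fits. With every library the numbers were 6086, 2809 and 2752. All p-values here are limma's, adjusted by Benjamini-Hochberg over all genes tested, and all differences are on the scale of log2(TPM + 1) after scaling, with limma's standard error (SE).

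The fitted difference lay above 0, toward EVs, for 24 of 36 genes in wild type, 26 in ATG7-/- and 19 in ATG12-/-. For all genes tested that share was 30.1%, 32.6% and 29.7%. For the 13998 protein-coding genes tested it was 42.2%, 44.3% and 40.4%. The medians of the described genes were 0.36, 0.35 and 0.09, against -0.75, -0.48 and -0.54 for all genes. No test was made over the list. STAM, CHMP6, SDC1 and SDC4 passed the filter on low values only through EV libraries, and STAM2 and SMPD2 only through cell libraries, so the filter bore on the sign of those 6. In all 3 genotypes 16 genes lay above 0, and 7 lay below 0, namely STAM2, VPS4A, VPS4B, FLOT2, RAB27A, RAB11A and SMPD3. With only protein-coding transcripts summed, 14 of 35 genes lay above 0 and 5 lay below in all 3 genotypes. Of the 7, only RAB27A and SMPD3 were still among those below, and RAB11A lay above 0 in all 3. In ATG12-/- 16 genes then lay above 0 and 19 below. With TPM as deposited, the median of all genes in wild type moved from -0.75 to -0.48, 18 genes lay above 0 and 4 lay below (STAM2, VPS4B, RAB27A and SMPD3) in all 3 genotypes, and 9 of 36 genes passed in wild type, where 20% of all genes did, with HGS, VPS25, VPS36, CD81 and RAB7A added as higher in EVs.

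**Figure D2:**
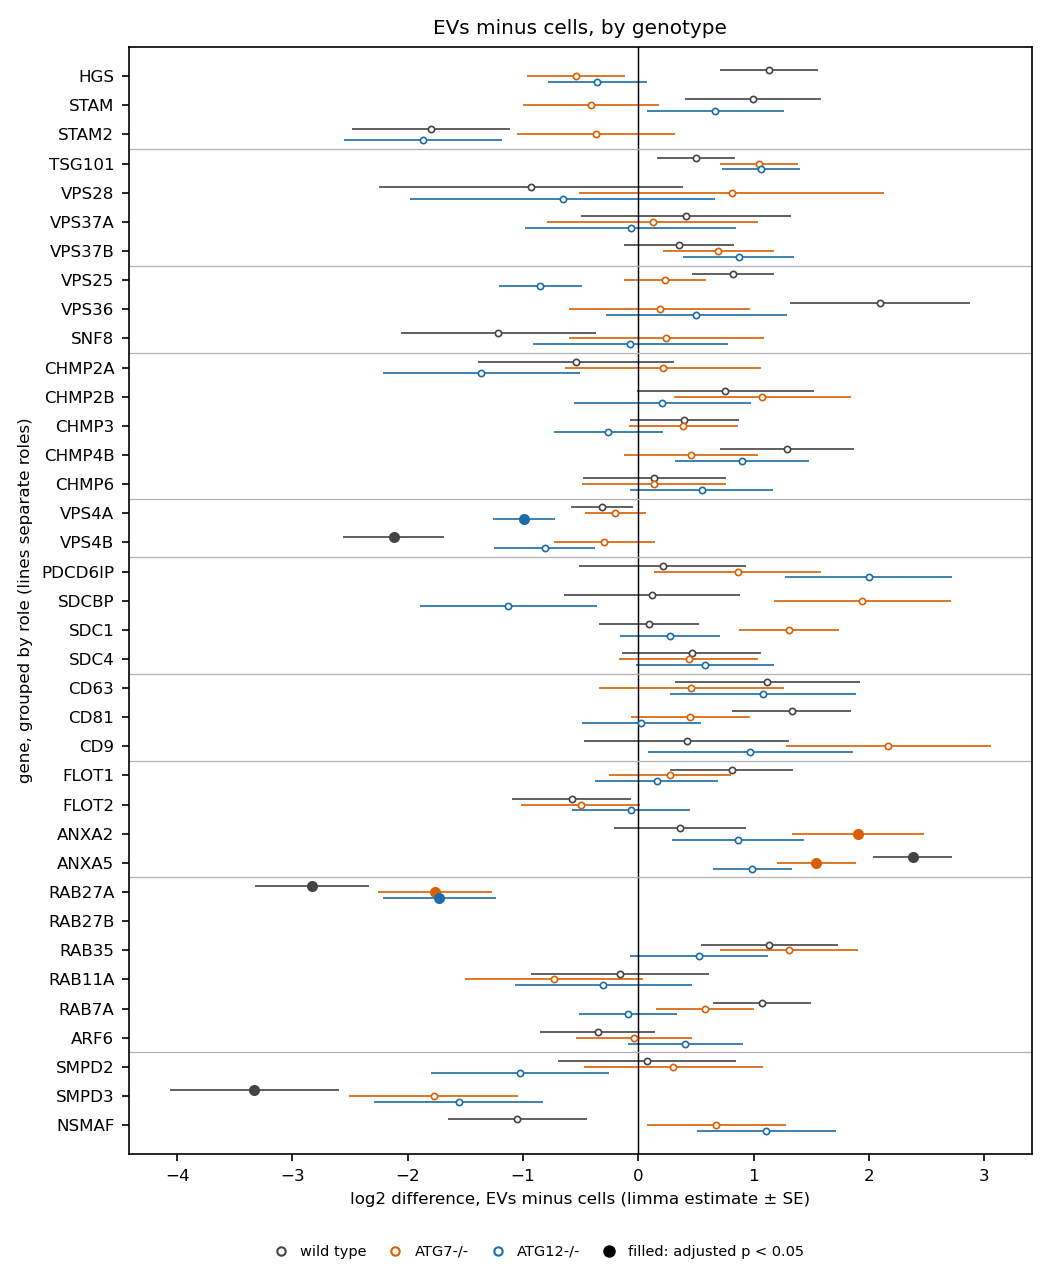
Fitted log2 difference of EVs minus cells for each gene (x axis, limma estimate with SE as bars) in the 3 genotypes, with filled points past the threshold. ANXA5 lies right of 0 and RAB27A left of 0 in each genotype, and 36 of the 37 genes have points.

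RAB27A encodes the GTPase that docks multivesicular endosomes at the plasma membrane. Its RNA was 0, 0 and 0.434 TPM in the 3 wild-type EV libraries and 6.08, 7.4 and 4.37 TPM in wild-type cells. It was 0, 1.01 and 2.82 TPM in ATG7-/- EVs and 7.59, 4.1 and 4.37 TPM in ATG7-/- cells. ATG12-/- gave 0.991, 1.17 and 0.15 TPM in EVs and 5.29, 2.77 and 6.11 TPM in cells. EVs lay below cells without overlap in all 3 genotypes. The difference was -2.83 (SE 0.49, adjusted p = 0.00111) in wild type, -1.76 (SE 0.49, adjusted p = 0.0312) in ATG7-/- and -1.73 (SE 0.49, adjusted p = 0.0349) in ATG12-/-. The wild-type call held without any 1 library. The ATG7-/- call held in 2 of 6 such fits and was lost without EV replicates 1 or 2 or cell replicates 1 or 3 (adjusted p from 0.0573 to 0.123), and with TPM as deposited (0.0518). The ATG12-/- call held only without cell replicate 2 and had an adjusted p of up to 0.114 in the other 5, and it was lost with no trend and with sample weights (0.0506).

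SMPD3 encodes neutral sphingomyelinase 2, an enzyme that makes ceramide. It was 13.2, 12.1 and 10.5 TPM in wild-type cells and 0, 2.8 and 0 TPM in wild-type EVs, a difference of -3.33 (SE 0.73, adjusted p = 0.00482). In ATG7-/- it was 1.52, 4.59 and 11.7 TPM in cells and 1.43, 0.619 and 0.474 TPM in EVs, which did not overlap but did not pass (-1.77, SE 0.73, adjusted p = 0.127). In ATG12-/- it was 9.89, 5.21 and 5.53 TPM in cells and 0.141, 8.15 and 0.888 TPM in EVs, where the ranges overlapped through EV replicate 2. PRMT7, on the other strand and overlapping SMPD3 by 239 bases, had means of 4.76 TPM in cells and 9.29 TPM in EVs.

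VPS4B and VPS4A encode the ATPases that take ESCRT-III filaments apart. VPS4B was 5.88, 6.74 and 5.94 TPM in wild-type cells and 0.331, 1.84 and 1.36 TPM in wild-type EVs, a difference of -2.12 (SE 0.44, adjusted p = 0.00324) with no overlap. In ATG7-/- it was 4.81, 4.63 and 6.1 TPM in cells and 9.71, 1.86 and 5.05 TPM in EVs, which overlapped, with EV replicate 1 above every cell library. ATG12-/- gave 3.4, 3.72 and 3.59 TPM in cells and 1.83, 1.74 and 1.7 TPM in EVs, again without overlap. VPS4A was the more abundant of the pair, at 83.1, 73.2 and 56.2 TPM in ATG12-/- cells and 41.7, 37.1 and 36.2 TPM in ATG12-/- EVs. That difference was -0.99 (SE 0.27, adjusted p = 0.0284), and it was lost without EV replicates 2 or 3 or cell replicates 1 or 2 (adjusted p from 0.0616 to 0.119), and with TPM as deposited (0.0541). VPS4A in wild type was 56.3, 58.1 and 65.6 TPM in cells and 55.3, 82.9 and 68.3 TPM in EVs, and in ATG7-/- 41.4, 53.9 and 36.5 TPM in cells and 45.6, 49.3 and 38 TPM in EVs, so both ranges overlapped. COG8, which overlaps VPS4A by 1245 bases on the other strand, had means of 53.5 TPM in EVs and 29.2 TPM in cells against 50.5 and 58.3 TPM for VPS4A.

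The annexins bind acidic phospholipids in the presence of calcium. ANXA5 was 43.5, 37.3 and 42.3 TPM in wild-type EVs and 4.72, 4.53 and 5.41 TPM in wild-type cells. It was 38.7, 23 and 27.4 TPM in ATG7-/- EVs and 8.87, 6.58 and 8.43 TPM in their cells. ATG12-/- gave 20.3, 18.1 and 24.7 TPM in EVs and 10.6, 12.7 and 5.34 TPM in cells. EVs lay above cells without overlap in each genotype, and wild-type EVs had the highest mean of the EV groups. The difference was 2.38 (SE 0.34, adjusted p = 0.000284) in wild type, 1.54 (SE 0.34, adjusted p = 0.0102) in ATG7-/- and 0.99 (SE 0.34, adjusted p = 0.0764) in ATG12-/-, and the first and second of these held without any 1 library. ANXA2, which works with S100A10, was 16.8, 16 and 8.79 TPM in ATG7-/- EVs and 3.67, 2.42 and 1.37 TPM in ATG7-/- cells, a difference of 1.90 (SE 0.57, adjusted p = 0.0437). This call was lost in each of the 6 fits that left out 1 library (adjusted p from 0.0539 to 0.136), and with no filter on low values (0.0566). ANXA2 was 14.2, 6.9 and 2.52 TPM in wild-type EVs and 3.61, 2.93 and 3.74 TPM in wild-type cells, overlapping, and in ATG12-/- 11.4, 3.45 and 17 TPM in EVs and 2.41, 4.73 and 5.51 TPM in cells, also overlapping.

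**Figure D3:**
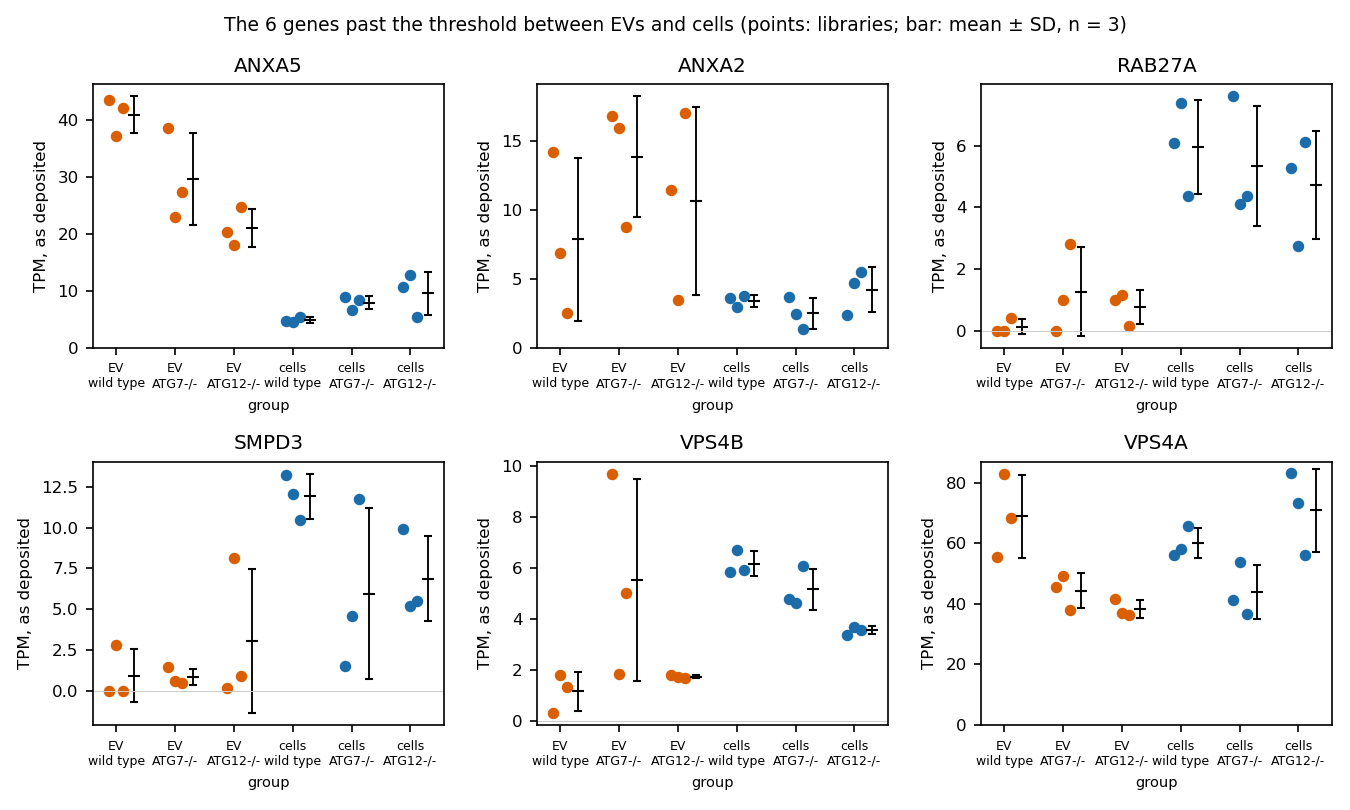
TPM as deposited (y axis) of the 6 genes past the threshold between EVs and cells, by group (x axis), with points for libraries and bars for the mean and SD of 3 libraries. ANXA5 is 18.1 to 43.5 TPM in EVs and 4.53 to 12.7 TPM in cells. RAB27A is at most 2.82 TPM in EVs and at least 2.77 TPM in cells.

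Most of the cell TPM of RAB27A, SMPD3 and VPS4B lay in annotated transcripts of types other than protein-coding. Of the 37 genes, 16 had over 50% of their mean cell TPM in transcripts of other types (processed transcripts, retained introns, or transcripts marked for nonsense-mediated decay). RAB27A-203, a processed transcript of 830 nt, had a mean of 3.94 of the 5.34 TPM of RAB27A in cells and 0.314 TPM in EVs. SMPD3-207, a processed transcript of 582 nt, had 6.60 of the 8.25 TPM of SMPD3 in cells and 0.147 TPM in EVs. VPS4B-204 and VPS4B-206, both retained-intron transcripts, had 2.17 and 1.63 of the 4.98 TPM of VPS4B in cells, and 0.260 and 0 TPM in EVs. A stretch of RAB27A-203, from the GENCODE 29 transcripts (GRCh38, minus strand, 5′ to 3′), shows sequence that sets this transcript apart from the coding ones. It is chr15:55290277-55290396 and opens a run of 509 bases that lie in no protein-coding transcript of the gene, marked by capitals.
RAB27A-203: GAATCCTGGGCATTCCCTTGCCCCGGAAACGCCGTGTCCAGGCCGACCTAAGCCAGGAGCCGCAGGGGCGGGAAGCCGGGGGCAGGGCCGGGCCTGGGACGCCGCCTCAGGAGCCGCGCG

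With only protein-coding transcripts summed, RAB27A, SMPD3 and VPS4B no longer passed in wild type. The difference became -1.22 for RAB27A (adjusted p = 0.0851), -1.27 for SMPD3 (adjusted p = 0.0765) and -0.71 for VPS4B (adjusted p = 0.451), by limma. Over the other settings tried without leaving out a library, the adjusted p went down to 0.00103 for RAB27A, 0.00435 for SMPD3 and 0.00266 for VPS4B, and the protein-coding sum gave the highest. ANXA5-201, the coding transcript, held all 30.6 TPM of ANXA5 in EVs and 6.70 of 7.47 TPM in cells, and ANXA5 then passed in each genotype, at 2.40, 1.75 and 1.20 (adjusted p = 0.000133, 0.0029 and 0.0264). With these sums 35 genes were tested, and 24.8%, 10.6% and 10.5% of all genes passed in wild type, ATG7-/- and ATG12-/-. Wild type then had 4 calls again, but only ANXA5 was shared: CD63 (2.08, SE 0.67, adjusted p = 0.036) and RAB11A (2.30, SE 0.64, adjusted p = 0.0174) were higher in EVs, and VPS4A (-1.23, SE 0.31, adjusted p = 0.0104) was lower. RAB11A had been below 0 in wild type with all transcripts summed (-0.16). In ATG7-/- the coding transcripts gave ANXA5 and ANXA2 (2.06, SE 0.63, adjusted p = 0.0492). In ATG12-/- they gave ANXA5 and PDCD6IP (2.80, SE 0.43, adjusted p = 0.00107). The coding sum of PDCD6IP was 6.87, 14.7 and 17.2 TPM in ATG12-/- EVs and 2.14 TPM in wild-type EV replicate 1. No other library reached 1 TPM. PDCD6IP thus passed the filter on low values only through the group where it was high, so the filter fixed its direction and nothing is read from it. RAB27A was then -0.81 in ATG7-/- (adjusted p = 0.318) and -0.31 in ATG12-/- (adjusted p = 0.725), and VPS4A was -0.39 in ATG12-/- (adjusted p = 0.459). Short reads assign TPM among overlapping transcripts by estimate, and how much of either pattern comes from that step was not tested.

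**Figure D4:**
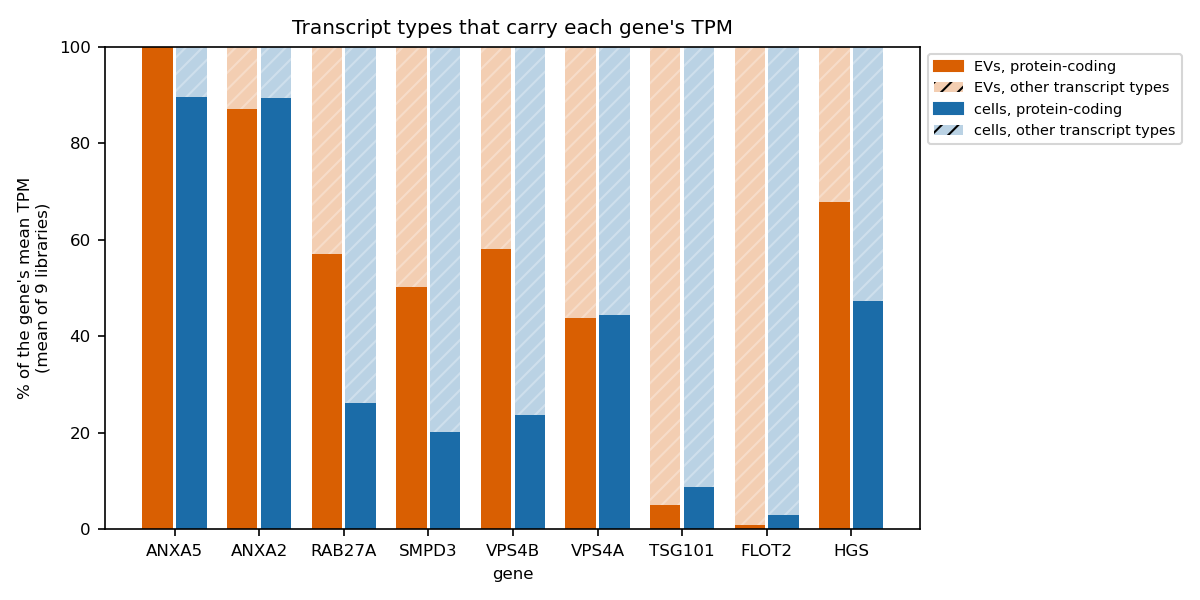
Percent of the mean TPM of each of 9 genes (y axis) in protein-coding transcripts (solid) and other transcript types (hatched), for 9 EV libraries (orange) and 9 cell libraries (blue). RAB27A has 42.9% in other types in EVs and 73.8% in cells, SMPD3 has 49.8% and 79.9%, and ANXA5 has 0% and 10.4%.

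TSG101, the ESCRT-I subunit that binds ubiquitin and recruits the later complexes, was the other gene whose EVs lay above cells without overlap in all 3 genotypes. It was 65.9, 52.3 and 38.2 TPM in wild-type EVs and 23.8, 23.4 and 28.6 TPM in wild-type cells. It was 106, 91.6 and 66.2 TPM in ATG7-/- EVs and 35.2, 37.2 and 33.7 TPM in ATG7-/- cells, and 45.3, 89 and 118 TPM in ATG12-/- EVs and 30.2, 43.4 and 28.1 TPM in ATG12-/- cells. No TSG101 difference passed in the fits as reported. It was 0.50 in wild type, 1.04 (SE 0.34, adjusted p = 0.0596) in ATG7-/- and 1.06 (SE 0.34, adjusted p = 0.0557) in ATG12-/-. It did pass with a filter of 5 TPM (adjusted p = 0.0472 in ATG7-/- and 0.0421 in ATG12-/-) and with TPM as deposited (0.0352 and 0.0413), and in ATG7-/- with no trend and with sample weights (0.0409), by limma. TSG101-212, a transcript of 912 nt marked for nonsense-mediated decay, had 55.6 of the 74.7 TPM in EVs and 25.9 of the 31.5 TPM in cells. With protein-coding transcripts only, the TSG101 difference turned to -0.42 in ATG7-/- and -0.80 in ATG12-/- (adjusted p = 0.667 and 0.38, limma). In wild type it stayed above 0, at 0.82 (adjusted p = 0.294, limma).

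In counts, EVs lay above cells without overlap for 9 of the 36 genes tested in wild type, 12 in ATG7-/- and 5 in ATG12-/-. The share of all genes was 12.1%, 10.6% and 7.88%. EVs lay below cells for 4, 2 and 5 genes, where the share was 23.5%, 20.5% and 22.8%. Groups of 3 that do not overlap were thus common in the whole table, where EVs more often lay below cells. Among the described genes EVs more often lay above in wild type and ATG7-/-. These counts were not tested.

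Among ESCRT-0 genes, which bind ubiquitinated cargo first, HGS was 113, 146 and 53.8 TPM in wild-type EVs and 35.3, 30.5 and 26.5 TPM in wild-type cells (1.13, SE 0.43, adjusted p = 0.0642). HGS was 58.7, 61.8 and 18.9 TPM in ATG7-/- EVs and 51.5, 50.4 and 53.2 TPM in ATG7-/- cells, and 39.1, 28.7 and 37.1 TPM in ATG12-/- EVs and 32.6, 43.7 and 46.5 TPM in ATG12-/- cells. The HGS groups did not overlap in wild type and overlapped in both knockouts. Its partners STAM and STAM2 were low, with medians of 0.485 and 0 TPM in EVs and 0.198 and 2.32 TPM in cells. The other ESCRT-I genes had means from 5.54 TPM (VPS37B) to 19.4 TPM (VPS28) in EVs and from 2.41 TPM (VPS37B) to 12 TPM (VPS28) in cells, and VPS28 was listed at 0 in 2 EV libraries.

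VPS25, the most abundant of the ESCRT-II genes in both EVs and cells, was 40.7, 52.5 and 50.0 TPM in wild-type EVs and 23.9, 16.9 and 16 TPM in wild-type cells (0.82, SE 0.36, adjusted p = 0.105). It was 23.4, 27 and 26.6 TPM in ATG7-/- EVs and 14.9, 19.2 and 22.1 TPM in ATG7-/- cells. In ATG12-/- it was 29.2, 23.5 and 12.8 TPM in EVs and 26.9, 30.5 and 50.7 TPM in cells (-0.85, SE 0.36, adjusted p = 0.136). The sign of the VPS25 value thus differed between wild type and ATG12-/-, and neither passed. VPS36 had means of 4.74 TPM in EVs and 1.02 TPM in cells, and SNF8 of 20.5 and 17 TPM. The ESCRT-III genes, whose products form the filament at the neck, had means from 1.35 TPM (CHMP6) to 7.44 TPM (CHMP2A) in EVs and from 0.592 TPM (CHMP6) to 5.75 TPM (CHMP2A) in cells. CHMP2A was 0, 18.2 and 4.12 TPM in wild-type EVs, 12.1, 3.8 and 22.4 TPM in ATG7-/- EVs and 5.02, 1.41 and 0 TPM in ATG12-/- EVs. In cells CHMP2A was 4.13, 4.95 and 3.78 TPM, 10.4, 7.05 and 5.74 TPM and 5.35, 3.61 and 6.78 TPM in the same order of genotypes. The EV values of CHMP2A ran from 0 to 22.4 TPM and spanned every cell value.

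PDCD6IP encodes ALIX, which links syntenin to ESCRT-III. It was 4.85, 0.974 and 7.65 TPM in wild-type EVs, 20.3, 10.3 and 3.05 TPM in ATG7-/- EVs and 6.87, 36.9 and 24.9 TPM in ATG12-/- EVs. In cells it was 0.875, 2.29 and 4.09 TPM, 6.66, 3.1 and 2.46 TPM and 2.18, 5.33 and 3.54 TPM, respectively. EVs and cells did not overlap in ATG12-/- alone, where the difference was 2.00 (SE 0.72, adjusted p = 0.0887). SDCBP, which encodes syntenin, was 19.8, 3.95 and 2.1 TPM in wild-type EVs, 8.73, 11.9 and 9.04 TPM in ATG7-/- EVs and 2.2, 11.2 and 0 TPM in ATG12-/- EVs. In cells SDCBP was 2.73, 3.67 and 5.23 TPM, 2.19, 0.561 and 2.04 TPM and 4.95, 5.41 and 8.65 TPM. The ATG7-/- groups of SDCBP did not overlap (1.94, SE 0.77, adjusted p = 0.112). With no trend and with sample weights, SDCBP and SDC1 passed in ATG7-/- (1.98 and 1.31, adjusted p = 0.0442 and 0.0408, limma). The syndecans SDC1 and SDC4, its cargo, had medians of 0.708 and 0.868 TPM in EVs and 0.184 and 0.631 TPM in cells.

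The tetraspanins CD63, CD81 and CD9, the usual protein marks of EVs, did not pass in any genotype with all transcripts summed. CD63 was 42.8, 68.5 and 51.3 TPM in wild-type EVs, 50.3, 16.5 and 28.5 TPM in ATG7-/- EVs and 67.7, 84 and 9.72 TPM in ATG12-/- EVs. In cells CD63 was 58.4, 7.61 and 10.2 TPM, 17.1, 13.5 and 23.8 TPM and 9.79, 12.5 and 33.1 TPM. The first wild-type cell value stood far above the others, and 48.2 of its 58.4 TPM lay in transcripts of other types. CD81 was 36.5, 10.4 and 27.1 TPM in wild-type EVs and 7.58, 6.94 and 3.3 TPM in wild-type cells (1.33, SE 0.52, adjusted p = 0.0718), which did not overlap. In ATG7-/- CD81 was 11.2, 14.4 and 16.8 TPM in EVs and 9.65, 10.1 and 6.26 TPM in cells, and in ATG12-/- 13, 13.7 and 46.3 TPM and 17.1, 16.7 and 20.8 TPM. Its ATG12-/- groups overlapped. CD9 was 0, 6.65 and 9.46 TPM in wild-type EVs, 7.73, 5.7 and 12.5 TPM in ATG7-/- EVs and 5.08, 0.81 and 14.6 TPM in ATG12-/- EVs. In cells CD9 was 1.82, 5.56 and 0 TPM, 1.07, 0.99 and 0.499 TPM and 0.795, 1.54 and 2.99 TPM, and the groups did not overlap in ATG7-/- alone (2.17, SE 0.89, adjusted p = 0.125).

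Flotillins are scaffold proteins of membrane rafts. FLOT2 was 18.4, 20.5 and 21.2 TPM in wild-type EVs, 37, 17 and 31.9 TPM in ATG7-/- EVs and 45.7, 34.7 and 43.4 TPM in ATG12-/- EVs. In cells it was 45, 15.6 and 13.9 TPM, 32.1, 53.2 and 21.5 TPM and 40.1, 19.8 and 73.2 TPM, overlapping with EVs in each genotype. Transcripts of other types held 99.1% of FLOT2 in EVs and 97.1% in cells. FLOT2-204, of 2503 nt, had 29.7 TPM in EVs and 14.7 TPM in cells, while FLOT2-209, of 266 nt, had 0 TPM in EVs and 18.8 TPM in cells. FLOT1 had means of 8.68 TPM in EVs and 4.70 TPM in cells.

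Among the small GTPases, RAB7A, which directs endosomes to lysosomes, was 71, 66.5 and 47.5 TPM in wild-type EVs and 13, 19.5 and 31.1 TPM in wild-type cells (1.07, SE 0.43, adjusted p = 0.0781). It was 70.0, 39.8 and 36.5 TPM in ATG7-/- EVs and 16.6, 34.6 and 32.2 TPM in ATG7-/- cells, and 20.1, 29.2 and 61.2 TPM in ATG12-/- EVs and 35, 27.5 and 33.7 TPM in ATG12-/- cells. The wild-type and ATG7-/- groups did not overlap. RAB35, RAB11A and ARF6, which act in endosome recycling, had means of 12.3, 17.1 and 3.09 TPM in EVs and 3.90, 13.6 and 2.18 TPM in cells. The RAB11A range in EVs, 2.84 to 55.4 TPM, was the widest of the GTPases and spanned every cell value.

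SMPD2 encodes neutral sphingomyelinase 1, and NSMAF encodes FAN, an adaptor that activates neutral sphingomyelinase. SMPD2 was listed at 0 in 7 of 9 EV libraries, and was 10.3 TPM in wild-type EV replicate 1 and 3.36 TPM in ATG7-/- EV replicate 1. In cells SMPD2 was 1.96, 1.23 and 0 TPM in wild type, 0.987, 0 and 0 TPM in ATG7-/- and 0.448, 1.47 and 1.48 TPM in ATG12-/-. NSMAF was 0.109, 1.52 and 0 TPM in wild-type EVs, 1.02, 7.21 and 2.15 TPM in ATG7-/- EVs and 11.1, 2.55 and 5.63 TPM in ATG12-/- EVs. In cells NSMAF was 1.07, 0.87 and 3.2 TPM, 0.974, 1.86 and 0.717 TPM and 2.9, 2.1 and 0.811 TPM, at most 3.20 TPM in any library. In EVs all 3 genes of this role were thus low, with means from 1.52 to 3.48 TPM in EVs.

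EVs of the knockouts were then compared with wild-type EVs, the comparison that bears on LC3 conjugation. None of the 34 genes tested passed in ATG7-/- EVs (0.141% of all 17076 genes tested passed) or in ATG12-/- EVs (0.105%), by limma. The smallest adjusted p was 0.66 in ATG7-/- and 0.548 in ATG12-/-, and limma without a trend and with sample weights also called 0 in both. At an unadjusted p under 0.05 there was 1 gene in ATG7-/- EVs (7.41% of all genes) and there were 5 in ATG12-/- EVs (7.94%). STAM2, RAB27B and SMPD2 did not pass the filter on low values. Both comparisons used the same 3 wild-type EV libraries.

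In ATG7-/- EVs the 1 gene was STAM, at 0.485, 0.114 and 0 TPM against 4.95, 1.36 and 3.29 TPM in wild-type EVs (-1.66, SE 0.70, adjusted p = 0.66). STAM passed the filter on low values only because all 3 wild-type EV libraries reached 1 TPM, so the filter fixed its direction and nothing is read from it. In ATG12-/- EVs, NSMAF (2.22, SE 0.80, adjusted p = 0.548), PDCD6IP (2.14, SE 0.89, adjusted p = 0.61) and FLOT2 (1.07, SE 0.43, adjusted p = 0.601) had higher values, from the libraries given above. HGS (-1.37, SE 0.55, adjusted p = 0.601) and VPS25 (-1.08, SE 0.45, adjusted p = 0.607) had lower values. NSMAF and FLOT2 in ATG12-/- EVs lay above wild type in 3 of 3 libraries without overlap, while PDCD6IP overlapped through the first ATG12-/- library. Groups did not overlap for 6 genes in ATG7-/- EVs, where the share of all genes was 13.9%: TSG101 and VPS4B were higher, and FLOT1, STAM, VPS25 and VPS4A were lower. They did not overlap for 7 genes in ATG12-/- EVs (11.3% of all genes): FLOT2 and NSMAF were higher, and ANXA5, HGS, VPS25, VPS36 and VPS4A were lower. VPS25 and VPS4A lay below the shared wild-type libraries in both knockouts. With protein-coding transcripts only, some of these genes had the other sign. They were TSG101 (-1.43), FLOT1 (0.48) and VPS4A (0.58) in ATG7-/- EVs, and VPS36 (0.83) and VPS4A (0.51) in ATG12-/- EVs. VPS25 stayed below 0 (-0.75 and -1.06), the rest kept their sign where tested, and none passed.

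In cells, likewise, none of the 32 genes tested passed in ATG7-/- (0.2% of all 22471 genes tested passed) or in ATG12-/- (0.134%), and limma without a trend and with sample weights also called 0. The smallest adjusted p was 0.142 in ATG7-/- and 0.129 in ATG12-/-. At an unadjusted p under 0.05 there were 5 genes in each, against 14.4% and 15% of all genes. In ATG7-/- cells these were HGS (0.81, SE 0.20, adjusted p = 0.142), CHMP4B (0.94, SE 0.32, adjusted p = 0.252), CHMP2A (0.75, SE 0.31, adjusted p = 0.32) and TSG101 (0.54, SE 0.21, adjusted p = 0.307) with higher values, and SDCBP (-0.90, SE 0.38, adjusted p = 0.333) with lower values. With protein-coding transcripts only, the HGS value was -0.017 (adjusted p = 0.991). In ATG12-/- cells they were CD81 (1.55, SE 0.33, adjusted p = 0.129), VPS25 (0.89, SE 0.29, adjusted p = 0.233) and ANXA5 (0.80, SE 0.32, adjusted p = 0.3) with higher values, and SNF8 (-1.07, SE 0.35, adjusted p = 0.231) and VPS4B (-0.62, SE 0.22, adjusted p = 0.258) with lower values. CD81 in ATG12-/- cells, at 16.7 to 20.8 TPM, lay above wild-type cells, at 3.30 to 7.58 TPM, without overlap, and its adjusted p missed the threshold. Different transcripts carried it: CD81-210 held 10.4 and 7.22 TPM in ATG12-/- cell replicates 1 and 3, and CD81-217 held 12.5 TPM in replicate 2. Groups did not overlap for 7 genes in each knockout, against 19.9% of all genes in ATG7-/- and 23.6% in ATG12-/-. CHMP4B, a core subunit of the ESCRT-III filament, lay above the shared wild-type cells in both, at 3.86, 3.69 and 2.14 TPM in ATG7-/- and 1.57, 2.29 and 3.47 TPM in ATG12-/- against 1.53, 1.35 and 0.837 TPM.

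**Figure D5:**
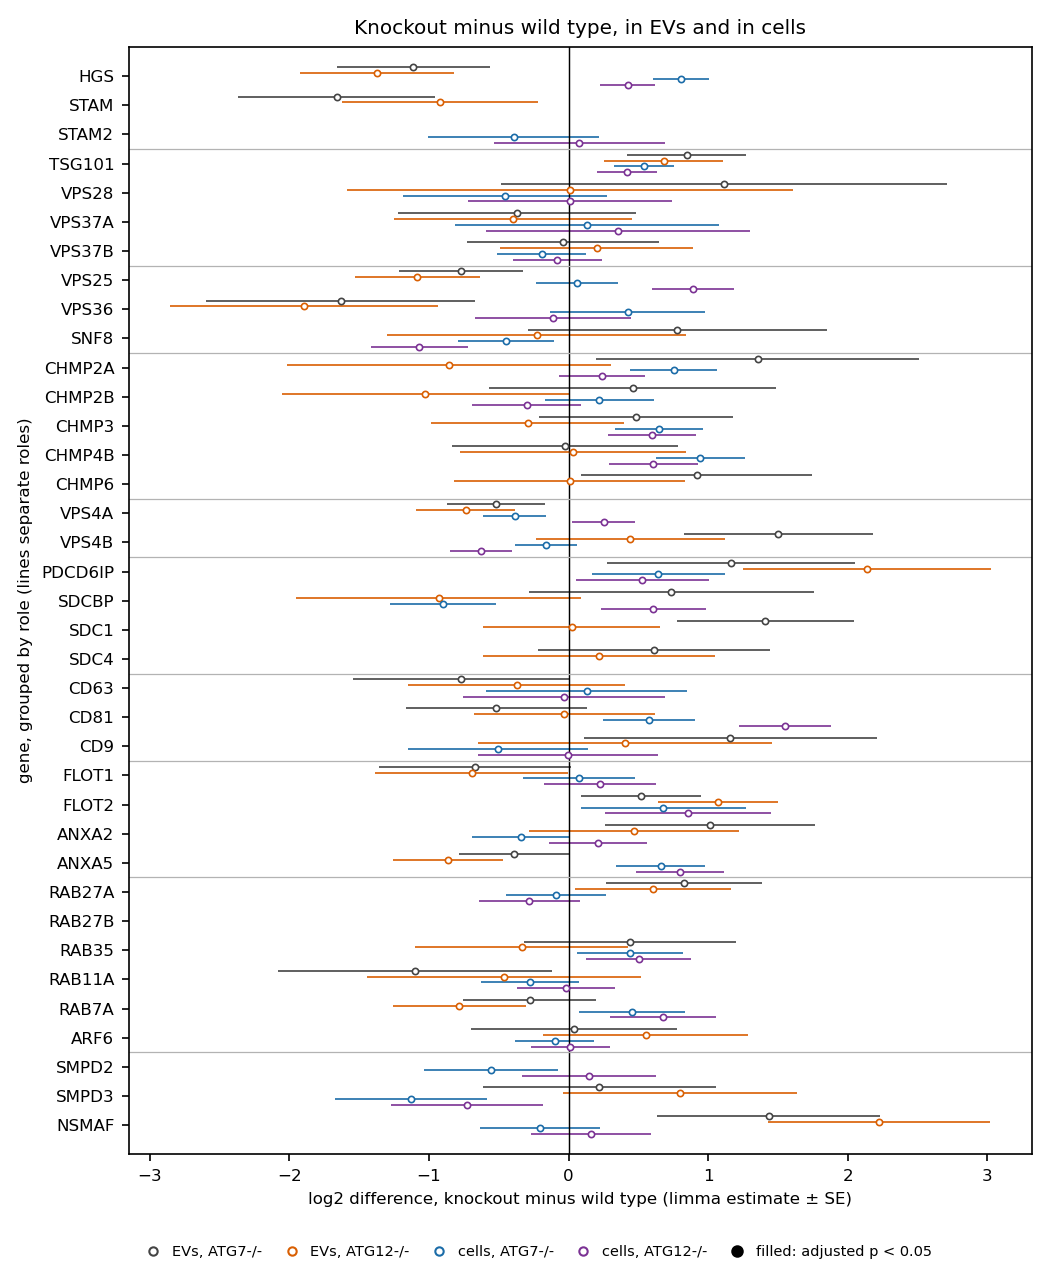
Fitted log2 difference of knockout minus wild type for each gene (x axis, limma estimate with SE as bars), in EVs and in cells. No point is filled, since 0 of 34 genes in EVs and 0 of 32 in cells passed the threshold, and the bars of EVs are mostly wider than those of cells.

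The difference between EVs and cells was also tested for a change with genotype. None of the 36 genes tested passed in ATG7-/- against wild type (0.284% of all 24647 genes tested passed) or in ATG12-/- against wild type (0.268%), and limma without a trend and with sample weights also called 0. At an unadjusted p under 0.05 there were 2 genes in ATG7-/- (8.91% of all genes) and 4 in ATG12-/- (10.1%). In ATG7-/- the EV-to-cell difference was 1.83 (SE 0.62, adjusted p = 0.361) above that of wild type for VPS4B and -1.67 (SE 0.60, adjusted p = 0.404) for HGS. In ATG12-/- it was 2.16 (SE 0.85, adjusted p = 0.423) for NSMAF, -1.67 (SE 0.50, adjusted p = 0.273) for VPS25, -1.49 (SE 0.60, adjusted p = 0.431) for HGS and -1.39 (SE 0.48, adjusted p = 0.35) for ANXA5. So the calls of ANXA2, VPS4A, VPS4B and SMPD3 in single genotypes were not shown to differ between genotypes.

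A further 64 genes of the same pathways, chosen as other subunits, paralogs and partners, were counted beside the 37. In wild type, 7 of 60 tested passed between EVs and cells, where 24.7% of all genes did. Those higher in EVs were CHMP1A (1.87, SE 0.40, adjusted p = 0.00439) and IST1 (1.29, SE 0.39, adjusted p = 0.0246) of ESCRT-III, S100A10 (2.17, SE 0.72, adjusted p = 0.0402), the partner of ANXA2, the early endosome GTPase RAB5A (2.17, SE 0.65, adjusted p = 0.0246) and the fusion protein VAMP7 (1.26, SE 0.44, adjusted p = 0.0478). The tetraspanin CD151 (-1.49, SE 0.51, adjusted p = 0.0438) and the GTPase RAB31 (-4.08, SE 0.92, adjusted p = 0.00545) were lower. In ATG7-/- 3 of 60 passed (11.4% of all genes did), all higher in EVs: S100A10 (2.99, SE 0.72, adjusted p = 0.016), VAMP7 (1.73, SE 0.44, adjusted p = 0.0204) and VTA1 (2.27, SE 0.70, adjusted p = 0.0483), a cofactor of VPS4. In ATG12-/- 2 of 60 passed (11.2% of all genes did), both lower in EVs: RAB31 (-4.67, SE 0.92, adjusted p = 0.00548) and UNC13D (-1.26, SE 0.38, adjusted p = 0.0464), which primes secretory granules. CHMP1A and RAB31 kept their calls without any 1 library, while the wild-type calls of IST1, RAB5A, S100A10, CD151 and VAMP7 held in 3, 3, 2, 1 and 1 of 6 such fits. In ATG7-/- S100A10 held in 4, VAMP7 in 3 and VTA1 in none, and in ATG12-/- UNC13D held in 1. With protein-coding transcripts only, the wild-type calls of CHMP1A (0.94, adjusted p = 0.427), RAB5A (0.79, adjusted p = 0.37) and CD151 (-2.47, adjusted p = 0.075) and the ATG7-/- call of VTA1 (1.08, adjusted p = 0.3) were lost, by limma, while those of S100A10 and VAMP7 were kept and UNC13D was not tested. Over the 9 settings tried, VAMP7 passed in 3 and CD151 in 5 in wild type, and UNC13D passed in 3 of the 7 in which it was tested. With protein-coding transcripts, IST1 turned to -1.17 in wild type, and RAB31 turned to 0.37 in wild type and 0.23 in ATG12-/-. None of the 57 genes tested in EVs or the 59 tested in cells passed between knockout and wild type by limma. At an unadjusted p under 0.05 there were 0 in ATG7-/- EVs, 6 in ATG12-/- EVs, 7 in ATG7-/- cells and 9 in ATG12-/- cells, where the shares of all genes were 7.41%, 7.94%, 14.4% and 15%.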

How the data were processed

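Per the labels' protocols, a stranded kit for total RNA was used for the large-RNA libraries of EVs and cells, with 22 PCR cycles and single-end reads of 50 bp. The authors deposited 1 table of TPM for 203027 transcripts, which holds no counts, so the depth of a library is unknown and no counting interval was possible. Salmon 0.14 and DESeq2 are named in the submitters' processing notes with no role. The build, annotation and strand setting were not given in the sources used here.

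Of the transcripts, 202941 were matched by identifier to GENCODE 29 (GRCh38) and summed to 57865 genes. The 86 unmatched held at most 0.0384% of a library. Scaling used the median of ratios, taken over genes that reached 1 TPM throughout the libraries of a fit. The test, limma 3.58.1 (R 4.3.3) with a mean-variance trend on log2(TPM + 1), took genes that reached 1 TPM in 3 or more of these libraries. A fold change on this scale understates that of low genes. Knockouts were fitted on the 9 EV or the 9 cell libraries, and comparisons of EVs with cells on all 18. Each fit pooled the spread of its groups, so in the fit on all 18 EVs and cells shared it, though EVs spread more. The tests are two-sided, adjusted by Benjamini-Hochberg over all genes tested, with a threshold of 0.05. The fits were tested on simulated data, with normal noise of the same SD in every group and changes only in genes above a set mean. That test does not cover low genes or the unequal spread of EVs and cells.

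The 37 genes and the further 64 were chosen with earlier results of these data known. Values in each library are given for those of the 37 past the threshold between any groups, for neutral sphingomyelinases and NSMAF, tetraspanins, TSG101, PDCD6IP and SDCBP, and for the genes with the highest mean of each role. Those of the 64 past the threshold are given by their differences. STAM, CHMP4B and SNF8, named for an unadjusted p under 0.05, lie outside this rule and were chosen after their values were seen. Alternatives were another pseudocount (0.5), other filters (none, or 5 TPM), no scaling, leaving out mitochondrial and small noncoding RNA, sample weights, a replicate block, protein-coding transcripts only, leaving out transcripts under 200 nt, and leaving out each library. Sequences of some other transcripts are not reported here.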

Additional observations from a re-analysis of the deposited data

How the results depend on the processing

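No described gene passed between knockout and wild type, in EVs, in cells or in the change of the EV-to-cell difference, under any of the 9 settings or without any 1 library. Between EVs and cells, the count in wild type was 4 (24.7% of all genes passed), and 9 with TPM as deposited and no scaling (20%). In ATG7-/- it was 3 (11.4%), and 6 with no trend and with sample weights (15%). In ATG12-/- it was 2 (11.2%), and 1 with no trend and with sample weights (10.5%). Leaving out 1 library gave 4 to 7 genes in wild type, 1 to 2 in ATG7-/- and 0 to 3 in ATG12-/-, not always genes called with every library. With the replicate block the counts were 4, 2 and 1 (23.6%, 10.4% and 10.2% of all genes), so the calls of ANXA2 in ATG7-/- and RAB27A in ATG12-/- were lost. Deviations from group means of same-numbered libraries correlated at -0.034 to 0.026, and those of libraries with different numbers at -0.028 to 0.035. No deviation shared by replicate number was thus seen. This cannot tell whether same-numbered libraries came from the same culture, which the labels do not say. Over all genes the block moved the calls from 24 to 9 in ATG7-/- EVs, from 18 to 3 in ATG12-/- EVs, from 45 to 13 in ATG7-/- cells and from 30 to 12 in ATG12-/- cells.

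Of 940 values of named genes under an alternative, 823 kept their direction and side of the threshold, 89 lost the threshold, 22 gained it and 6 reversed. The values belong to 61 results: described genes at an unadjusted p under 0.05, and further genes past the threshold. Most of the 61 were not calls, so they could not lose the threshold. The 89 losses fell on the calls alone, and the 823 do not measure how well calls held. All 6 reversals among these results came with protein-coding transcripts only: HGS in ATG7-/- cells against wild-type cells (-0.017), TSG101 between EVs and cells in ATG7-/- (-0.42) and ATG12-/- (-0.80), IST1 in wild type (-1.17), and RAB31 in wild type (0.37) and ATG12-/- (0.23). The cause was not tested, beyond the transcripts left out. TPM keep no depth, so how far depth limits the low genes is unknown.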
